A study of Homo sapiens with 2 samples.

Results

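The zinc finger genes outside chromosome 19 were followed at their starts in K562, a long-established human line from a chronic myelogenous leukaemia that keeps erythroid traits. Members were chosen by name alone, as genes called ZNF with a number and at most 1 letter, on any chromosome but 19 and Y. Of the 36814 windows of the deposited table, 259 were members. Another 3 windows of chromosome 22 that the name would admit were left out. Nascent RNA had been measured by PRO-seq, in which RNA polymerases at work on the DNA add biotin-bearing nucleotides to their transcripts, and only RNA with biotin is sequenced. There were 2 libraries, 1 from cells kept in 0.1% DMSO, a drug solvent, for 1 h and 1 from untreated cells. Both had the same run-on of 5 min at 30 °C, and the labels name no other agent. The table holds read counts in windows of 6000 bases, 3000 to either side of an annotated gene start on hg38. Each condition had 1 library, so no p-value is given and every difference between the libraries is a description of these 2 libraries.

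C2H2 zinc finger proteins bind DNA through strings of small zinc-holding fingers, and together they form the largest family of human transcription factors. Many carry a KRAB domain, which binds the corepressor TRIM28 and through it the histone methyltransferase SETDB1, and such proteins silence transposable elements. The family grew by tandem duplication, so its genes often lie side by side. A large share sits on chromosome 19. Those elsewhere include both KRAB genes and older genes with single roles in transcription, RNA handling and mitosis.

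The libraries held 4154920 DMSO and 2136291 untreated reads. Windows taken to lie over ribosomal RNA repeats were picked by their large share of the reads in both libraries, not by annotation. They took 42.2% of the DMSO and 71.5% of the untreated reads. This left 2249790 DMSO and 525322 untreated reads outside these and mitochondrial windows. The members held 27339 of these in the DMSO library (95% Poisson interval 27016 to 27665), or 1.22%. In the untreated library they held 5481 (5337 to 5628), or 1.04%. All intervals cover counting error only, since each condition had 1 library. The reads carry no molecular identifiers, so duplicates cannot be set apart. The line's identity was checked on its markers: 11 of 11 erythroid and BCR markers of K562 reached 1 CPM (count scaled to the library total) in both libraries. That level was reached by 34.7% of all windows and 40.7% of windows of protein-coding genes. The expression floor defined below was passed by 7 of the 11 markers (63.6%, against 17.9% of all windows).

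The promoters of the members are shown first, because they carry a feature that their levels can be set against. A RefSeq promoter (GRCh38.p14, 250 bases before to 50 after the start) whose start lies in the member's window was found for 184 members. Motifs were searched on both strands. CCGGAAG, an ETS-type site, was in 66 of the 184 promoters (35.9%). It was in 47.0% of 185 promoters of zinc finger genes on chromosome 19. Outside that chromosome it was in 41.1% of 56 promoters of zinc finger genes named ZFP, ZBTB, ZSCAN or ZKSCAN. The share was 14.9% in 13592 promoters of protein-coding genes and 10.3% in all 35116 promoters. The 4 promoters with CCGGAAG that follow are shown with 2 of the most densely read members that lack it in the bases shown. The 150 bases before the start run 5′ to 3′ on the gene's strand, and capitals mark CCGGAAG and GGGCGG, an SP/KLF-type site, on either strand.
ZNF316 (chr7:6637168-6637317, plus strand): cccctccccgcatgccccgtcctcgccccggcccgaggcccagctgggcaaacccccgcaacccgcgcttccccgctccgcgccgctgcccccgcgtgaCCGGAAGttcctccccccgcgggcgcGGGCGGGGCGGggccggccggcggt
ZNF3 (chr7:100081724-100081873, minus strand): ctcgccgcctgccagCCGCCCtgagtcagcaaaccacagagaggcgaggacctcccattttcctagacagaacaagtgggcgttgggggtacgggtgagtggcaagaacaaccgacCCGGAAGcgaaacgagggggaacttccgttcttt
ZNF622 (chr5:16465801-16465950, minus strand): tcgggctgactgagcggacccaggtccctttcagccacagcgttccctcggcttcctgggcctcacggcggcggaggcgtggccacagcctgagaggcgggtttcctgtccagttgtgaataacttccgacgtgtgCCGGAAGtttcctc
ZNF24 (chr18:35344421-35344570, minus strand): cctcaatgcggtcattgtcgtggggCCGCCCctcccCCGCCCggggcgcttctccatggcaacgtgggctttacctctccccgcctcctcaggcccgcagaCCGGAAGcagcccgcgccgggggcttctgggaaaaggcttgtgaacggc
ZNF768 (chr16:30526567-30526716, minus strand): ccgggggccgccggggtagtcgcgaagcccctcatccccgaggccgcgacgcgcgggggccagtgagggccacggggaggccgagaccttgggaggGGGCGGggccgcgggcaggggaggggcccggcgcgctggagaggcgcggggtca
ZNF513 (chr2:27380735-27380884, minus strand): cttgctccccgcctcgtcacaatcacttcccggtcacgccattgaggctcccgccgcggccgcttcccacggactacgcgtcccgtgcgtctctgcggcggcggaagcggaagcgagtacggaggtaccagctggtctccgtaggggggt
In ZNF316 the 2 copies of GGGCGG overlap by 1 base. ZNF513 has none of the searched motifs in the stretch shown. A match is a run of letters and not a bound site, and no binding data were used here.

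The position of CCGGAAG was close to the start. It began within the 25 bases before the start in 26 of 184 member promoters (14.1%). The share was 20.5% of the chromosome 19 promoters and 3.55% of the other protein-coding promoters. In each of these lists no other bin held a higher share, so this position is not particular to the members. The shares are of all promoters and so also hold the difference in how common the motif is. CCGGAAG began 25 to 50 bases before the start in 11 members and in the first 25 bases after it in 12. A promoter with several matches counts in each of its bins, so these members can overlap. CCAAT, the site type of NF-Y, was in 43.5% of member promoters and 54.6% of those on chromosome 19. It was in 39.3% of ZFP, ZBTB, ZSCAN and ZKSCAN promoters, 36.5% of protein-coding promoters and 34.6% of all promoters. GGGCGG was in 62.5% of member promoters, 60.7% of protein-coding ones and 44.95% of all. Its share was 67.0% on chromosome 19 and 76.8% in ZFP, ZBTB, ZSCAN and ZKSCAN promoters. TATAAA was in 3.80% of member promoters, against 9.40% of protein-coding and 11.5% of all promoters. The rarer motif of the members ZNF143 and ZNF76 was in 3 member promoters (1.63%), 0.397% of protein-coding ones and 0.231% of all. AAGATGGC, a YY1-type site, was in 3.26% of member, 4.16% of protein-coding and 2.89% of all promoters. The NRF1 motif was in 2.17%, 1.85% and 1.24% of the same lists. Median GC was 62.7% in member promoters, 63.3% in protein-coding promoters and 58.7% in all promoters.

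**Figure D1:**
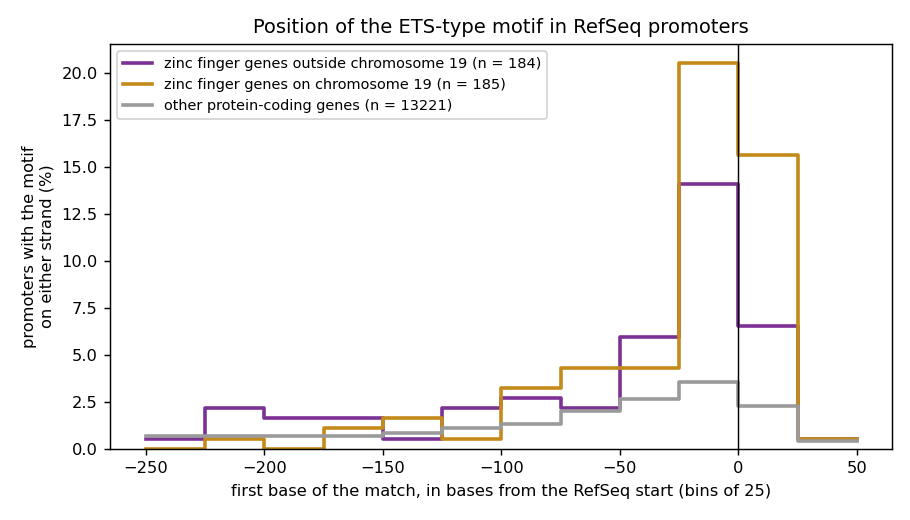
Share of RefSeq promoters in which the ETS-type motif begins in each bin of 25 bases (y axis, percent) against the distance from the start (x axis, bases), for members, zinc finger genes on chromosome 19 and other protein-coding genes. The bin just before the start holds 14.1% of the members, 20.5% of the chromosome 19 genes and 3.55% of the others.

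A longer arrangement was shared by 10 of the 184 (5.43%): CCAAT, 15 to 35 bases, CCAAT again, 15 to 45 bases, then CTTCCGG, which is CCGGAAG read on the other strand. This arrangement was defined after the sequences had been read, so its counts describe these promoters and test nothing. The 10 were ZNF107, ZNF138, ZNF141, ZNF195, ZNF267, ZNF519, ZNF595, ZNF680, ZNF720 and ZNF92, on 5 chromosomes. On chromosome 19 it was in 11 of 185 promoters (5.95%), in 0 of 56 of the ZFP, ZBTB, ZSCAN and ZKSCAN genes elsewhere, and in 3 of 15625 promoters of other windows (0.0192%). In the members the first spacer was 23 to 24 bases and the second 26 to 29 bases. Of these, 7 are shown as the 130 bases before the start, with the 3 elements in capitals.
ZNF595 (chr4:53191-53320, plus strand): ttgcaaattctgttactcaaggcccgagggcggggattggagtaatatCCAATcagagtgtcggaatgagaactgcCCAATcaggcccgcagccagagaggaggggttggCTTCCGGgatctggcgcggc
ZNF680 (chr7:64563072-64563201, minus strand): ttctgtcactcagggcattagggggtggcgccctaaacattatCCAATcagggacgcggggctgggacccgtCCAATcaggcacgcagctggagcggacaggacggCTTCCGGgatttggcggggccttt
ZNF92 (chr7:65373725-65373854, plus strand): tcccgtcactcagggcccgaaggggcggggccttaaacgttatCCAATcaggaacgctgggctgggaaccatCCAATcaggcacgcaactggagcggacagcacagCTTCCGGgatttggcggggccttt
ZNF107 (chr7:64666003-64666132, plus strand): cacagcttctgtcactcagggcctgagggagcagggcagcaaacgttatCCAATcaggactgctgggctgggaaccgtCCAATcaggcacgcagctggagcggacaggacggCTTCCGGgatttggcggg
ZNF195 (chr11:3379147-3379276, minus strand): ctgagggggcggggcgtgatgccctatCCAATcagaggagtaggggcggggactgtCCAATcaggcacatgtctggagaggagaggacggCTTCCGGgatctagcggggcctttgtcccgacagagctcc
ZNF267 (chr16:31873677-31873806, plus strand): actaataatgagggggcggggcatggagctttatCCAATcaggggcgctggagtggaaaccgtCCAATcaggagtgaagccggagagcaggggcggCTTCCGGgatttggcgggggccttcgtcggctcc
ZNF519 (chr18:14132436-14132565, minus strand): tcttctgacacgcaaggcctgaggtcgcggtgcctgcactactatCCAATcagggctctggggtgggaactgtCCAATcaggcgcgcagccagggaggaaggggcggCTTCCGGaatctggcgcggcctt
Pairwise identity over these 130 bases had a median of 64.0% among the 10, with a lowest value of 48.7% for ZNF680 with ZNF720 and a highest of 86.9% for ZNF680 with ZNF92. Among 15051 pairs of members without the arrangement the median was 46.5%. The 10 share the elements by which they were chosen, so a higher identity among them follows in part from that choice. ZNF680, ZNF107 and ZNF138 are also neighbours on chromosome 7.

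How many starts could be read at all was limited by overlap. Reads in bases that another window also covers were absent from the counts whatever the strand, since all 1154 windows with no base of their own held 0 reads. A member and an antisense or overlapping partner therefore cannot be told apart in the shared bases. Among the members 114 (44.0%) overlapped another window, against 38.8% of all windows. Under 1 kb of unshared bases was left to 91 (35.1%), against 23.7% of all windows. No read in either library was found for 46 members (17.8%), against 20.5% of all windows, and 41 of the 46 had under 1 kb unshared. The other 5 were ZNF454, ZNF705B, ZNF705D, ZNF705E and ZNF716. ZNF705B, ZNF705D and ZNF705E belong to a family of near-identical copies, and how reads of such copies were placed is not given in the sources used here, so their levels are uncertain. A count of 0 allows up to 0.722 CPM in the DMSO and 1.40 CPM in the untreated library, counting 3 reads. Reads in both libraries were present for 159 members. A further 49 had DMSO reads only (18.9%, against 29.5% of all windows) and 5 had untreated reads only (1.93%, against 1.9%).

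About as many members reached 1 CPM in both libraries as did not. That level was reached by 130 members (50.2%) and by 51.4% of zinc finger windows on chromosome 19. It was reached by 34.7% of all windows and 40.7% of windows of protein-coding genes. Among windows with 1 kb or more unshared it was reached by 71.4% of members and 75.9% on chromosome 19. The shares were 42.7% of all such windows and 52.3% of protein-coding ones. With totals that leave out ribosomal and mitochondrial windows, 154 members reached it, and the share of all windows was not computed there. A window passed the expression floor with at least 5 CPM on average and 100 reads over both libraries. This floor was passed by 86 members (33.2%), against 17.9% of all windows, 25.03% of protein-coding windows, 22.3% of those on chromosome 19 and 41.1% of 73 ZFP, ZBTB, ZSCAN and ZKSCAN windows elsewhere. Just inside it stood ZNF572 with 80 DMSO and 26 untreated reads, and just outside it ZNF26 with 87 DMSO and 10 untreated reads. Among windows with 1 kb or more unshared, 85 of 168 members (50.6%) passed, against 55.6% of ZFP, ZBTB, ZSCAN and ZKSCAN, 34.2% of protein-coding and 33.1% of chromosome 19 windows. Levels between genes are given as CPM per kb of unshared bases, averaged over the libraries. Their median was 2.64 in members (quartiles 0.370 to 6.61), 2.97 in ZFP, ZBTB, ZSCAN and ZKSCAN windows, 1.46 on chromosome 19, 0.662 in protein-coding windows and 0.254 in all windows.

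Members with CCGGAAG in the promoter had a higher median density than those without, and the same held for CCAAT and for GGGCGG. Among members with a promoter and 1 kb unshared, 27 of 39 with it (69.2%) passed the floor, with a median of 5.596 CPM per kb. Without it 35 of 71 (49.3%) passed, with a median of 2.61 CPM per kb. Members with CCAAT passed in 34 of 50 cases (68.0%) and those without in 28 of 60 (46.7%). Their medians were 4.89 and 2.54 CPM per kb. For GGGCGG the counts were 42 of 64 (65.6%) with it and 20 of 46 (43.5%) without, with medians of 5.18 and 2.46. The 3 motifs occur together in some promoters, and their separate parts were not tested. For CCGGAAG a like order was seen over all protein-coding windows, which include the zinc finger genes. Of those past the floor 20.1% had CCGGAAG, against 6.02% of those with 1 kb unshared that did not pass. Counted in the same way, 44.4% of members past the floor had it, against 25% of those with 1 kb unshared that did not pass.

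The densest start was that of ZNF34 on the long arm of chromosome 8 (144784346 to 144790345), with 1511 DMSO and 308 untreated reads, or 69.4 and 27.5 CPM per kb. The ribosomal protein gene RPL8 reaches into its window. ZNF513, known for a role in photoreceptor gene expression, followed with 1336 DMSO and 294 untreated reads in chr2:27377791-27383790, a window that the RefSeq gene PPM1G reaches into. Next was ZNF768, which binds a repeat-derived motif at active genes, with 1349 DMSO and 251 untreated reads. Its window holds the start of the RefSeq promoter shown above, but not the outermost start of its RefSeq gene. These 3 stood at 48.4, 38.3 and 36.8 CPM per kb. ZNF496, known as a partner of the histone methyltransferase NSD1, had 938 DMSO and 136 untreated reads. ZNF7 had 762 DMSO and 123 untreated reads. After these came ZNF316 with 590 DMSO and 154 untreated reads (17.8 CPM per kb) and ZNF595 with 503 and 193 (17.6), whose densities are too close to order. ZNF672 had 473 DMSO and 99 untreated reads, ZNF517 had 412 and 102, ZNF3 had 442 and 86, and ZNF771 had 375 and 116. These 4 lay at 13.3 CPM per kb or less. CPM are scaled to library totals that hold unequal shares of ribosomal RNA, so the gap between the DMSO and the untreated density of a member does not compare its levels.

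**Figure D2:**
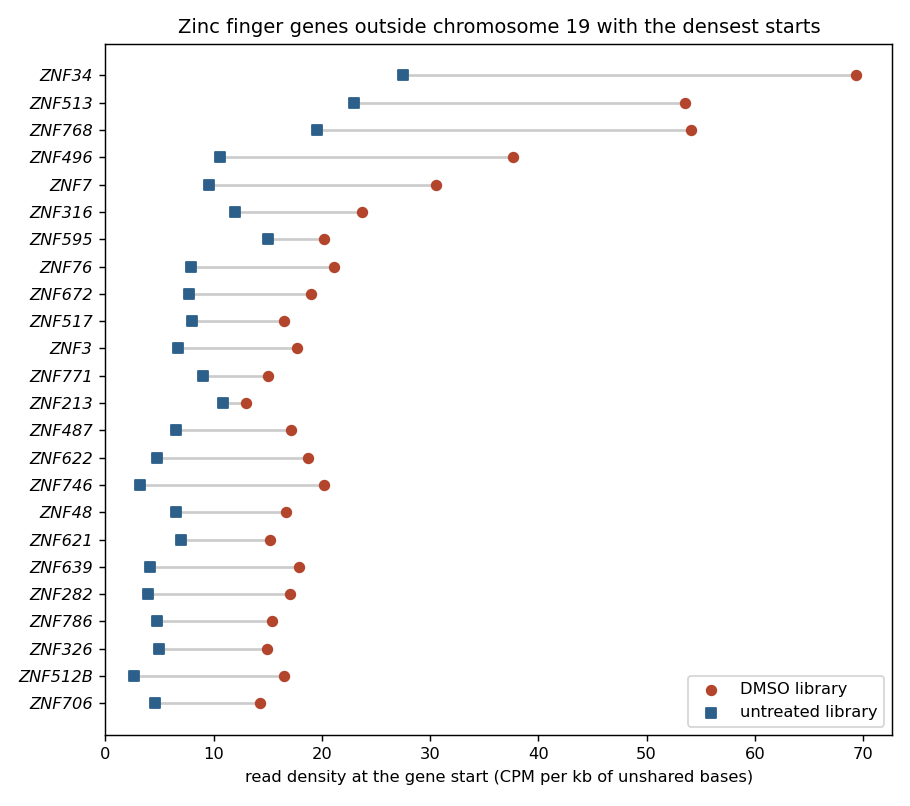
Read density at the start (x axis, CPM per kb of unshared bases) of the 24 members with the densest starts, in the DMSO library (circles) and the untreated library (squares). ZNF34, ZNF513 and ZNF768 stand apart at 48.4, 38.3 and 36.8 CPM per kb averaged over the libraries, and every circle lies right of its square.

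Of the members listed for a known role, 12 of 31 passed the floor (38.7%, against 33.2% of all members and 17.9% of all windows) and 11 had under 1 kb of unshared bases. The list was drawn up by function, with results of these data already known. Among those that act on chromatin and transcription, ZNF76, an activator of small nuclear RNA and protein-coding genes, was densest with 526 DMSO and 101 untreated reads. ZNF384, a fusion partner in B cell leukaemia, had 260 DMSO and 33 untreated reads. ZNF335, part of a histone methyltransferase coactivator complex, had 232 and 40. These windows were all 6000 bases long and unshared. ZNF644, a partner of the methyltransferases G9a and GLP, had 229 DMSO and 58 untreated reads. ZNF202, a repressor of lipid genes, had 187 and 35. ZNF281, a regulator of pluripotency genes, had 185 DMSO and 27 untreated reads, and ZNF148, a partner of GATA1 at erythroid genes, had 171 and 31. All of these lay past the floor. ZNF410, the activator of CHD4 in erythroid cells, had 5 DMSO and 2 untreated reads over 1061 unshared bases. ZNF143, the promoter activator related to ZNF76, had 21 and 3 reads over 384 unshared bases, too short a stretch for a density.

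Members with roles in RNA, translation and mitosis fell into a read and an unreadable set. ZNF622, a factor of large ribosomal subunit assembly, had 466 DMSO and 61 untreated reads. ZNF326, which links elongating polymerase to splicing, had 372 and 63. ZNF385A, a p53 cofactor and RNA-binding protein, had 245 DMSO and 44 untreated reads, and ZNF830, a splicing-associated protein, had 213 and 46. ZNF207, a spindle and kinetochore protein, had 10 and 2 reads over 93 unshared bases. ZNF598, the ubiquitin ligase of collided ribosomes, had 10 and 2 reads over 104. ZNF346 had none over 62, and ZNF106 had 2 DMSO reads over 91. No level can be given for these 4. ZNF10, the source of the KRAB domain used in CRISPR interference, had no unshared base. Low counts in full windows were rarer: ZNF532 had 15 DMSO and 0 untreated reads, and ZNF827 had 7 and 0. ZNF638 had 1 DMSO and 2 untreated reads, in a window that does not hold its RefSeq start.

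Neural and developmental members passed the floor less often than the members as a whole, at about the share of all windows. Of 13 such members 6 reached 1 CPM in both libraries (46.2%, against 50.2% of all members) and 2 passed the floor (15.4%, against 33.2% of all members and 17.9% of all windows). The 2 were ZNF609, with 256 DMSO and 46 untreated reads, and ZNF521, known from early blood progenitors and neural cells, with 106 and 8. ZNF703, a breast cancer gene, had 71 DMSO and 6 untreated reads. ZNF804B, ZNF423 and ZNF462 had 15, 10 and 6 DMSO reads and 5, 3 and 4 untreated reads. The 4 members ZNF385B, ZNF385D, ZNF704 and ZNF608 had at most 8 DMSO reads and at most 1 untreated read in their windows. ZNF503, ZNF804A and ZNF365 had under 1 kb of unshared bases, and the windows of ZNF462 and ZNF704 do not hold the RefSeq start. The median of this list was 0.297 CPM per kb, against 2.64 in all members and 0.254 in all windows. That of the known-role list was 4.94.

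The KRAB partners were read for comparison. Of 21 listed genes 10 reached 1 CPM in both libraries (47.6%, against 34.7% of all windows) and 5 passed the floor (23.8%, against 17.9%). TRIM28 had 787 DMSO and 63 untreated reads, SETDB1 56 and 13, and HDAC1 220 and 46. TASOR and MPHOSPH8, of the HUSH silencing complex, had 283 and 137 DMSO reads and 56 and 31 untreated reads. UHRF1, DNMT1 and CBX5 had no read, and each had under 1 kb of unshared bases.

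To compare the libraries, counts were scaled with TMM factors, under which 3.81 DMSO reads stand for the same level as 1 untreated read. Log2 DMSO/untreated ratios were then taken relative to the median window past the floor. That median itself stood at 0.31 on the TMM scale and at 1.28 with library totals. The members had a median ratio of 0.12 (quartiles -0.23 to 0.39), with 56 of 86 above 0. In bulk cells, fewer cells that transcribe a gene and less transcription per cell cannot be told apart. Protein-coding windows had a median of 0.13, with 58.9% above 0. Of the 86 members, 5 were 2-fold or more higher with DMSO (5.81%, against 7.05% of all windows past the floor), and 2 were 2-fold or more lower (2.33%, against 7.9%). Intervals lay wholly above the median window for 18 members (20.9%, against 22.5%) and wholly below it for 7 (8.14%, against 24.4%). An interval wholly past 2-fold was found for 1 member above (1.16%, against 1.41%) and 0 below (against 2.7%).

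**Figure D3:**
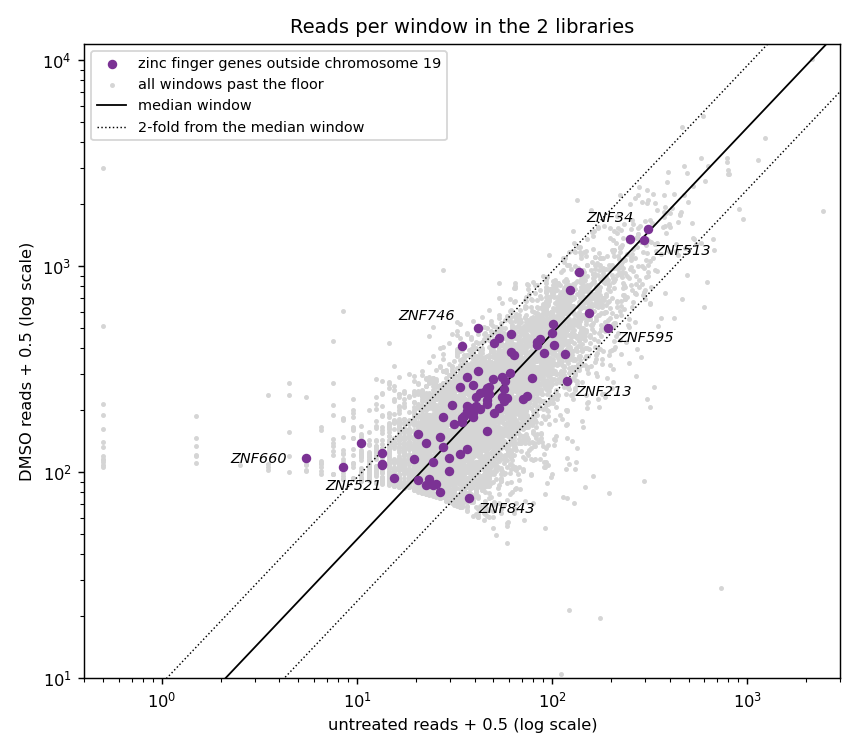
DMSO reads (y axis) against untreated reads (x axis), each plus 0.5 on a log scale, for members (purple) and all windows past the floor (grey). The solid line is the median window and the dotted lines are 2-fold from it; 5 members lie above the upper and 2 below the lower dotted line.

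Of the 5 higher members, 3 rested on 10 or fewer untreated reads. ZNF660 had 117 DMSO and 5 untreated reads, a log2 ratio of 2.26 (95% interval 1.05 to 3.96). Its window overlaps the RefSeq gene ZKSCAN7 and does not hold its own RefSeq start, and the genes cannot be told apart there. ZNF275 had 138 DMSO and 10 untreated reads (1.53, 0.63 to 2.64), and ZNF521 had 106 and 8 (1.46, 0.46 to 2.74). ZNF746, also called PARIS, a repressor degraded through parkin, had 503 DMSO and 41 untreated reads (1.37, 0.92 to 1.88). ZNF512B had 411 and 34 (1.35, 0.85 to 1.91). Next below 2-fold stood ZNF16, known to promote erythroid and megakaryocytic differentiation of K562, with 123 DMSO and 13 untreated reads (0.99, 0.18 to 1.95). ZNF282, ZNF639, ZNF839 and ZNF280C followed at 0.84, 0.83, 0.82 and 0.80. ZNF660, ZNF275 and ZNF521 passed the floor through their DMSO reads, so their place among the higher members follows in part from the floor.

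The 2 lower members lie on chromosome 16. ZNF843 had 74 DMSO and 37 untreated reads, a log2 ratio of -1.23 (-1.83 to -0.63). ZNF213 had 276 and 118 (-1.01, -1.33 to -0.69), in a window without its RefSeq start that overlaps ZNF213-AS1. ZNF595, near the end of the short arm of chromosome 4, had 503 DMSO and 193 untreated reads (-0.86, -1.10 to -0.61). ZNF572, ZNF500, ZNF821 and ZNF771 followed at -0.61, -0.58, -0.55 and -0.54, and ZNF195, ZNF276 and ZNF510 at -0.46, -0.44 and -0.44. ZNF276 is the 1 member past the floor with under 1 kb of unshared bases. Of the 12 members past the floor on chromosome 16, 5 were above 0 and the median was -0.31. The 405 other windows of that chromosome past the floor had a median of -0.16.

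Ratios of the members were higher than those of the zinc finger genes on chromosome 19, with no test possible. The members had a median of 0.12 with 65.1% above 0, and the 55 chromosome 19 windows past the floor had a median of -0.33 with 15 of 55 above 0 (27.3%). The medians differed by 0.45 on the log2 scale, and the ratios of summed reads were 0.08 (0.04 to 0.12) for all members and -0.34 (-0.40 to -0.29) for all chromosome 19 windows. The 30 ZFP, ZBTB, ZSCAN and ZKSCAN windows had a median of 0.0048, with 15 of 30 above 0. Median DMSO reads past the floor were 224.5 in members, 144 on chromosome 19 and 222 in protein-coding windows. With the DMSO library thinned to the depth of the untreated one, 40 members and 15 chromosome 19 windows passed the floor and the medians differed by 0.094. Over the windows that had passed before thinning the difference was 0.35. The part of read depth in it was not tested further.

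**Figure D4:**
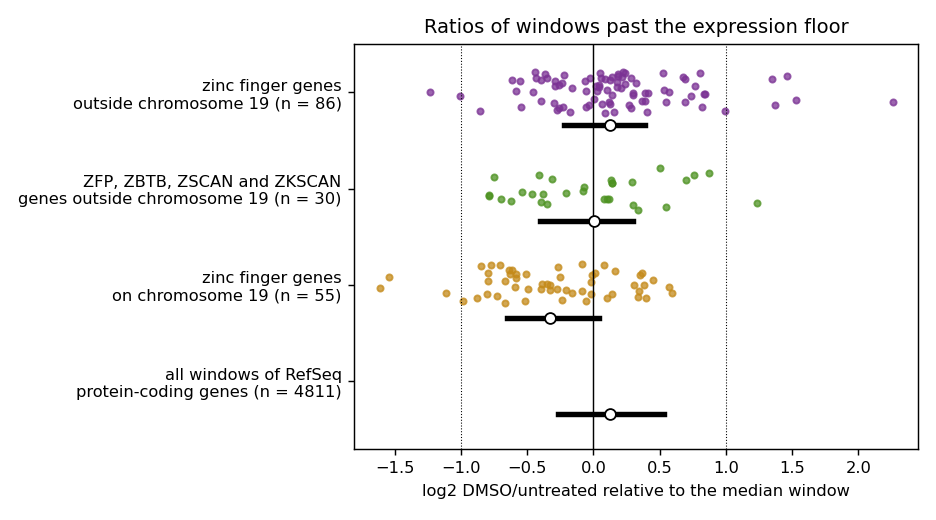
Log2 DMSO/untreated ratios relative to the median window (x axis) of windows past the floor, by gene group; points are windows, open circles medians and bars quartiles, and points of the protein-coding group are not drawn. The medians are 0.12 for members, 0.0048 for ZFP, ZBTB, ZSCAN and ZKSCAN genes, -0.33 on chromosome 19 and 0.13 for protein-coding windows.

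Neighbouring members were compared in runs of 3 or more whose windows start at most 200 kb apart, of which there were 18. On the long arm of chromosome 7 (149087783 to 149500817) lie ZNF786, ZNF425, ZNF398, ZNF282, ZNF212, ZNF783, ZNF777 and ZNF746. Several of these genes are known to carry an atypical KRAB domain. Of the 8, 6 passed the floor, and all 6 had ratios above 0, between 0.026 and 1.37. ZNF786 had 384 DMSO and 61 untreated reads, ZNF777 had 290 and 36, ZNF783 had 277 and 57, and ZNF212 had 202 and 42. Summed over the run the reads were 2086 DMSO and 289 untreated, a ratio of 0.61 (0.44 to 0.80). The ratios differed within the run, since the interval of ZNF746 lies above those of ZNF212 and ZNF783.

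The run at the end of chromosome 8 (144753418 to 144953888) held the most reads of any run. All 6 of its members, ZNF251, ZNF34, ZNF517, ZNF7, ZNF250 and ZNF16, passed the floor, with 3247 DMSO and 628 untreated reads in sum and a ratio of 0.13 (0.01 to 0.26). ZNF34, whose window RPL8 reaches into, gave 1511 of these DMSO reads. Their densities ran between 2.97 CPM per kb in ZNF16 and 48.4 in ZNF34, and 5 of the 6 ratios were above 0. ZNF250 had 301 DMSO and 60 untreated reads, and ZNF251 had 138 and 22.

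The interval of the summed ratio lay wholly above 0 in the chromosome 7 and 8 runs just described. It did so too in the run of ZNF124 and ZNF496 on chromosome 1 (0.36, 0.14 to 0.58). There ZNF496 gave 938 of 1201 DMSO reads. The run of ZNF397, ZNF24 and ZNF396 on chromosome 18 also lay above 0 (0.37, 0.05 to 0.69). The chromosome 8 sum of 0.13 was, to 2 decimals, the median of protein-coding windows (0.13). The interval lay wholly below 0 in 4 runs, on chromosomes 4, 7 and 16. Of single windows past the floor, 22.5% had intervals wholly above 0 and 24.4% wholly below it. The shares for like runs of other genes were not computed. On chromosome 4 (50286 to 502156), ZNF595 and ZNF718 passed the floor, ZNF718 with 122 DMSO and 33 untreated reads, and the 5 members together stood at -0.75 (-0.97 to -0.52). ZNF595 carried most of these reads, and without it the run stood at -0.25 (-0.80 to 0.34). On chromosome 16 (3109560 to 3446504) the 7 members summed to -0.74 (-0.99 to -0.47), with 276 of 473 DMSO and 118 of 167 untreated reads in ZNF213. Without ZNF213 the run stood at -0.23 (-0.69 to 0.25), and 6 of the 7 overlapped another window. On chromosome 7 (64560076 to 65009684) ZNF680, ZNF107, ZNF138, ZNF273 and ZNF117 summed to 276 DMSO and 80 untreated reads, at -0.45 (-0.82 to -0.07). Further along chromosome 7, ZNF789, ZNF394 and ZNF655 summed to 293 DMSO and 81 untreated reads, at -0.38 (-0.74 to -0.0097). A run beside that of ZNF680, with ZNF727, ZNF735, ZNF679 and ZNF736, held 25 DMSO and 9 untreated reads in all and none passed the floor. The largest run, 9 members on chromosome 16 (30375106 to 30790205) with ZNF768, ZNF771 and ZNF48, held 2649 DMSO and 559 untreated reads and stood at 0.0066 (-0.13 to 0.14).

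**Figure D5:**
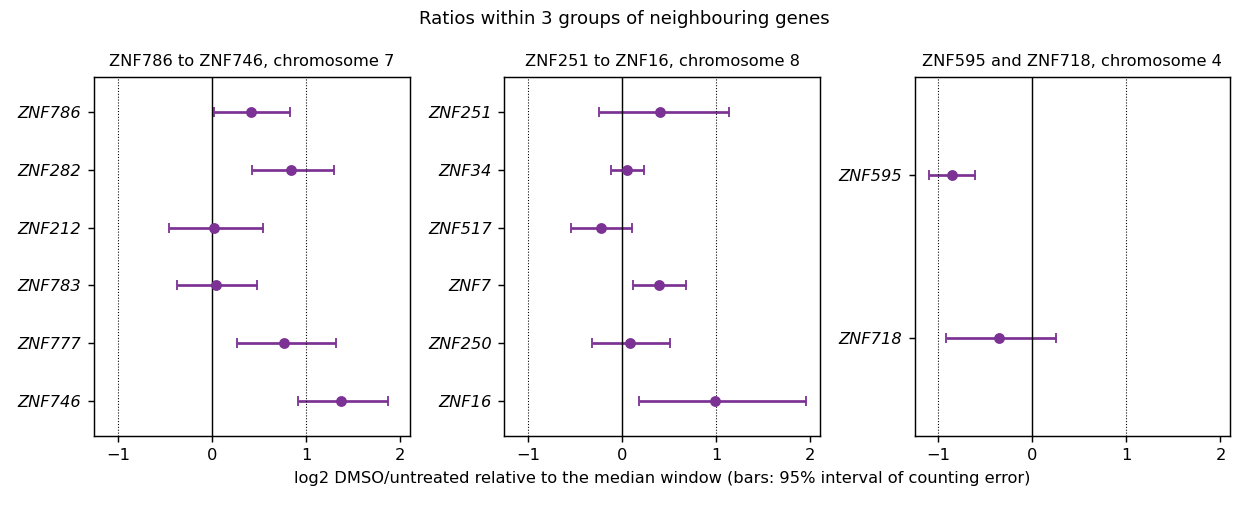
Log2 DMSO/untreated ratios relative to the median window (x axis) of members past the floor in 3 runs of neighbouring genes, with 95% intervals of counting error as bars. All 6 points of the chromosome 7 run and 5 of 6 on chromosome 8 lie above 0, and both on chromosome 4 lie below it.

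The members with the shared promoter arrangement were set against these values. Of the 10, 6 passed the floor, against 33.2% of all members and 17.9% of all windows. Of members with 1 kb unshared, as 9 of the 10 had, 50.6% passed. The 6 had a median ratio of -0.23, and ZNF107 and ZNF138 among them are neighbours in 1 run. ZNF595 had the most reads, followed by ZNF267 with 208 DMSO and 40 untreated reads (0.14) and ZNF92 with 182 and 34 (0.18). ZNF195 had 158 DMSO and 46 untreated reads (-0.46), ZNF138 had 117 and 29 (-0.23), and ZNF107 had 92 and 23 (-0.24). ZNF680 had 67 and 28 reads and ZNF519 had 53 and 7, both short of the floor. ZNF720 had 41 and 11 over 1244 unshared bases, and ZNF141 had none over 380. Of the 11 promoters with the arrangement on chromosome 19, 2 belonged to windows past the floor. All 11 windows had 1 kb unshared, and 33.1% of such zinc finger windows on chromosome 19 passed.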

How the data were processed

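The deposited counts are raw reads per window, on hg38; the submitters' processing notes name featureCounts 2.0.1 and Bowtie2 2.3.5. Strand handling of the counting is not given in the sources used here, but the counts behave as though strand was not used. The authors' deposited TPM equalled the counts scaled to the library total (CPM) in all 36814 windows and were not used further. Members and gene lists were chosen with earlier results of these data known. Counts were scaled with TMM in edgeR 4.0.16 (R 4.3.3). Log2 ratios used a prior count of 0.5 reads and were centred on the median of the windows past the floor; intervals at 95% are exact Poisson for counts and exact Clopper-Pearson for ratios, and cover counting error only. RefSeq matched all 259 members, 2 under another symbol, and 34 windows did not hold the RefSeq gene start. Named members are the 12 highest by mean CPM, the 6 densest, the 10 highest and 10 lowest ratios, those past 2-fold by interval, those with reads in 1 library only, the highest of each run and those with a known role; others are named after their values were seen. Promoter motifs and the arrangement were found in RefSeq sequences. Grouping by protein domain was not run. The ratio procedure was tested on simulated data. The check on markers of other cell types is not reported here.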

Additional observations from a re-analysis of the deposited data

Results flagged for a closer look

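The table also holds 23 windows of antisense, intronic or readthrough transcripts named after members, which are no members themselves and enter no count above. Reads were present in 16 of them, and 4 passed the floor (17.4%, against 17.9% of all windows). These 4 are given as signal outside the genes described. ZNF197-AS1 had 177 DMSO and 38 untreated reads, while ZNF197 itself had 19 and 6. ZNF213-AS1 had 258 DMSO and 50 untreated reads, beside 276 and 118 in ZNF213, whose window it overlaps. ZNF346-IT1 had 123 DMSO and 61 untreated reads, a log2 ratio of -1.22 (95% interval -1.68 to -0.76), while ZNF346 had none over 62 unshared bases. ZNF710-AS1 had 333 DMSO and 93 untreated reads, and ZNF710 had 148 and 26. The sources used here do not state the strand handling, and the counts behave as though strand was not used. Transcripts of the host gene and of the antisense gene therefore cannot be told apart in these windows.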

How the results depend on the processing

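Of 63 repeats of the main results under other settings, 38 kept the count within 1.5 times or the median within its tolerance. All repeats with library totals, DESeq2 1.42.0 size factors or upper quartile scaling were among these. Ratios were centred on the median window, so a change of scaling factor cancels except through the prior count. Those repeats could therefore hardly differ and are no check of the scaling. A floor of 1 CPM and 20 reads gave 13 members 2-fold higher, 6 lower and a median of 0.21. A floor of 20 CPM and 400 reads kept 22 members, 2 higher and 0 lower, with a median of 0.012 and a difference from chromosome 19 of 0.34. With any read, 213 members entered, 38 higher and 40 lower, and the median turned to -0.21; the cause was not tested. Thinning the DMSO library gave 2 higher, 0 lower, a median of 0.045 and a difference of 0.094; over the windows that had passed before thinning, added after seeing the data, the difference was 0.35. Windows without overlap, and those that hold the RefSeq start, each gave 1 lower. A 1.5-fold threshold gave 15 higher and 4 lower. Without centring 13 were higher, 0 lower, and the median was 0.43. This adds the same 0.31 to every ratio, so 7 of 50 named members changed sign, among them ZNF316, whose interval had lain below 0 and which stood at 0.0091. Centred on protein-coding windows, also added later, the median turned to -0.0032. Thinning changed the sign of 2 named members, ZNF76 and ZNF830, and put ZNF213, ZNF276 and ZNF839 on the other side of 2-fold. A prior count of 2 reads changed no sign and no side of 2-fold among the 50. The other scalings changed none either, which the centring makes near certain. No paired analysis was possible because each condition has 1 library, and no library could be left out. The 45 untreated reads of the median window past the floor limit the precision of single ratios.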
